A study of Mus musculus with 8 samples.

Results

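The CD300 receptors are a family of immunoglobulin-like membrane proteins of myeloid cells, and the genes described here are the 8 members Cd300a, Cd300c, Cd300c2, Cd300e, Cd300lb, Cd300ld, Cd300lf and Cd300lg of 26939 genes in the joined count tables. The members were found by gene name, and all 8 were listed in each of the 3 deposited tables. Cd300e was chosen by its measured genotype difference in these libraries, so its genotype differences are given as a description without a test. The other 7 were taken for their family name, and the question asked of them was whether they followed Cd300e. Bulk RNA-seq was performed on tumor-associated macrophages (TAMs) taken from EO771 mammary tumors at day 21 and sorted alive for CD45, CD11b and F4/80 without Gr-1. Each of the 4 groups held 2 libraries. The groups crossed genotype, wild-type (WT) or Unc93b1 3d/3d, with treatment, control or αMARCO. EO771 is a mouse mammary carcinoma line, and all tumors grew in the mammary fat pad of female mice. Unc93b1 3d is a germline point mutation in the chaperone that carries nucleic acid-sensing Toll-like receptors to endosomes, so every cell of a 3d/3d host carries it while the injected tumor cells do not. αMARCO mice were given 100 µg per dose of an antibody against the scavenger receptor MARCO on days 3, 6, 9 and 12. The labels call the control mice untreated or PBS, while the protocol names an isotype antibody, so what the controls received is not settled. A supplementary figure legend of the study states that control samples were each pooled from several mice. The genotype label of 1 Unc93b1 3d/3d library is spelled differently from its title, and the title was used. Because the mutation leaves the Unc93b1 mRNA in place, no transcript level checks the genotype labels.

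CD300 receptors share a single extracellular immunoglobulin-like domain and differ in how they signal. CD300a and CD300LF carry inhibitory motifs in the cytoplasmic tail that recruit phosphatases such as SHP-1. CD300e, CD300LB, CD300LD and CD300C2 belong to the activating or pairing type and signal through adaptors such as DAP12 (Tyrobp) or the Fc receptor gamma chain (Fcer1g). Several members bind phospholipids or other lipids that dying cells expose. CD300LG stands apart as a receptor of capillary endothelium.

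The library totals ran from 15182618 to 26411936 counts, and 3 counts, taken as the detection floor, corresponded to between 0.114 and 0.198 CPM (counts scaled to a library of 1000000 reads). The 2 Unc93b1 3d/3d αMARCO libraries stood apart from each other. Their median absolute log2 difference per gene was 0.54, against 0.15 to 0.20 between the replicates of the other groups, and 23.9% of genes differed more than 2-fold, against 4.71% to 8.34%. The sorted cells carried macrophage markers in every library, with 8 of 8 listed markers detected and a summed level of 8110 to 11800 CPM. T cell markers summed to between 63.3 and 71.7 CPM in WT control and to between 3.37 and 14.3 CPM in the other libraries. In bulk libraries, fewer cells of a type and less RNA per cell cannot be told apart.

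Of the 12 genes named Cd300 in the tables, 11 lie in one cluster on chromosome 11 and Cd300lg lies apart on the same chromosome. Cd300e occupies chr11:115051917-115062177 on the minus strand of GRCm38. Cd300a, at chr11:114890041-114904654 on the plus strand, marks one end of the cluster. Cd300lf, at chr11:115116214-115133992 on the minus strand, marks the other. Cd300lg occupies chr11:102041509-102055620 on the plus strand. The cluster also holds 4 genes outside the member list, Cd300ld2, Cd300ld3, Cd300ld4 and Cd300ld5, between Cd300c2 and Cd300e.

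The sequences show which of these genes short reads can tell apart. 3 of the reading frames, from GENCODE M21 transcripts, are shown over the first 60-base stretch that aligned without gaps among Cd300ld, Cd300ld2, Cd300ld3, Cd300ld4, Cd300ld5 and Cd300e, with capitals where a base differs from Cd300ld4:
Cd300ld4: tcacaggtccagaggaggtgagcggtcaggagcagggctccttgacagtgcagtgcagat
Cd300ld2: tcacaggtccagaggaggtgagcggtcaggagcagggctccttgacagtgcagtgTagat
Cd300e: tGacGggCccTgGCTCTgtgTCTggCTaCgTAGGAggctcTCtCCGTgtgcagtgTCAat
Cd300ld, Cd300ld3 and Cd300ld5 carried the same 60 bases as Cd300ld4, Cd300ld2 differed at 1 position and Cd300e at 29. Over the whole aligned reading frame, Cd300ld4 was 99.9% identical to Cd300ld5 and 99.5% identical to Cd300ld3. Cd300ld was 85.4% identical to Cd300ld4. Cd300e was at most 67.6% identical to any other Cd300 gene. The closest member pair was Cd300c and Cd300c2, at 84.4%, followed by Cd300ld and Cd300lf at 82.3% and by Cd300a and Cd300c2 at 81.3%.

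None of the 100-base stretches of Cd300e, Cd300lb, Cd300c and Cd300lg occurred in another annotated gene. Among the members, the share that did was 0.849% for Cd300a, 3.23% for Cd300c2, 0.644% for Cd300lf and 1.37% for Cd300ld. In contrast, it was 86.7% for Cd300ld4, 80.9% for Cd300ld3 and 100.0% for Cd300ld5, so counts of these 3 copies are uncertain one by one. No exonic base of a Cd300 gene was shared with another gene of the region. How reads that fit several genes were counted, and whether strand was used, is not given in the sources used here.

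The bases upstream of the start sites are shown for Cd300e and for the 3 members that passed the test between the genotypes in control TAMs. They are written 5′ to 3′ on the strand of the gene and come from RefSeq on GRCm38.p6, where 7 of 8 members matched, with bases inside the annotated gene left out, and capitals mark GAGGAA, the core letters bound by the myeloid factor PU.1, on either strand:
Cd300e, chr11:115062178-115062289, minus strand: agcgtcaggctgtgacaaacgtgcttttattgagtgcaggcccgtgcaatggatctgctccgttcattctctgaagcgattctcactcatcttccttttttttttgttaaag
Cd300a, chr11:114889791-114890040, plus strand: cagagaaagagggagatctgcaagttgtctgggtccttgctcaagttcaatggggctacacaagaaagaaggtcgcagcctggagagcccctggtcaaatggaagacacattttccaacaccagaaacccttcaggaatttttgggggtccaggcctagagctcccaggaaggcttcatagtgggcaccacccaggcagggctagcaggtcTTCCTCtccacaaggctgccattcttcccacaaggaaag
Cd300c2, chr11:115001881-115002130, minus strand: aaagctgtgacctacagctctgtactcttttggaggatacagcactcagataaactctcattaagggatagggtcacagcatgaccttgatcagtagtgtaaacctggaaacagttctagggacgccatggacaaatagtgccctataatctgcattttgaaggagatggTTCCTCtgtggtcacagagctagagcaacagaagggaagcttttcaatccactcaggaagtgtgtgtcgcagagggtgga
Cd300lf, chr11:115133993-115134242, minus strand: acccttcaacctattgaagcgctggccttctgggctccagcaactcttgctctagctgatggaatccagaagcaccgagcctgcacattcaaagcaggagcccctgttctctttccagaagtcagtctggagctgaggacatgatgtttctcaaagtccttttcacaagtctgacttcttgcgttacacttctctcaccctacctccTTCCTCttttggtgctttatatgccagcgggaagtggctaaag
Over the 250 bases before the RefSeq start, these letters occurred 1 time each in Cd300a, Cd300c2, Cd300lf and Cd300ld and not in Cd300e, Cd300lb and Cd300c. They occurred in 23.3% of all 32851 RefSeq upstream windows of that length. Of the 5 other motifs searched on both strands, TGANTCA (AP-1) was in none of the 7 windows and GAAANNGAAA (ISRE) in that of Cd300c alone, against 6.75% and 2.98% of all windows. GGGNNNNNCC (kappaB) was in those of Cd300a, Cd300lb, Cd300c and Cd300ld, and TTNCNNAA (C/EBP) in those of Cd300a, Cd300c, Cd300ld and Cd300lf, against 45.8% and 36.8% of all windows. CANNTG (E-box), held by 66.2% of all windows, was in those of Cd300a, Cd300c, Cd300ld and Cd300e. Overlaps between motifs were not examined. A match is a description of the letters only.

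Cd300e, an activating receptor of monocytes, was the member with the widest range. In control mice its level was 558 and 615 CPM in the WT libraries, and 10.04 and 7.56 CPM in those of Unc93b1 3d/3d. Under αMARCO it was 253 and 271 CPM in WT, and 13.6 and 9.78 CPM in Unc93b1 3d/3d. Both WT groups lay far above both Unc93b1 3d/3d groups, without overlap, and within WT the αMARCO libraries lay below the control libraries. As a description, the fitted WT to Unc93b1 3d/3d fold was 66.3 in control (log2 6.05 ± 0.16, SE) and 22.1 under αMARCO (log2 4.46 ± 0.27). By absolute log2 fold change Cd300e ranked 15 of 15600 genes in control and 19 of 15722 under αMARCO. The transcript was low in the mutant but not absent, since its lowest library still held 143 reads, well above the floor.

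**Figure D1:**
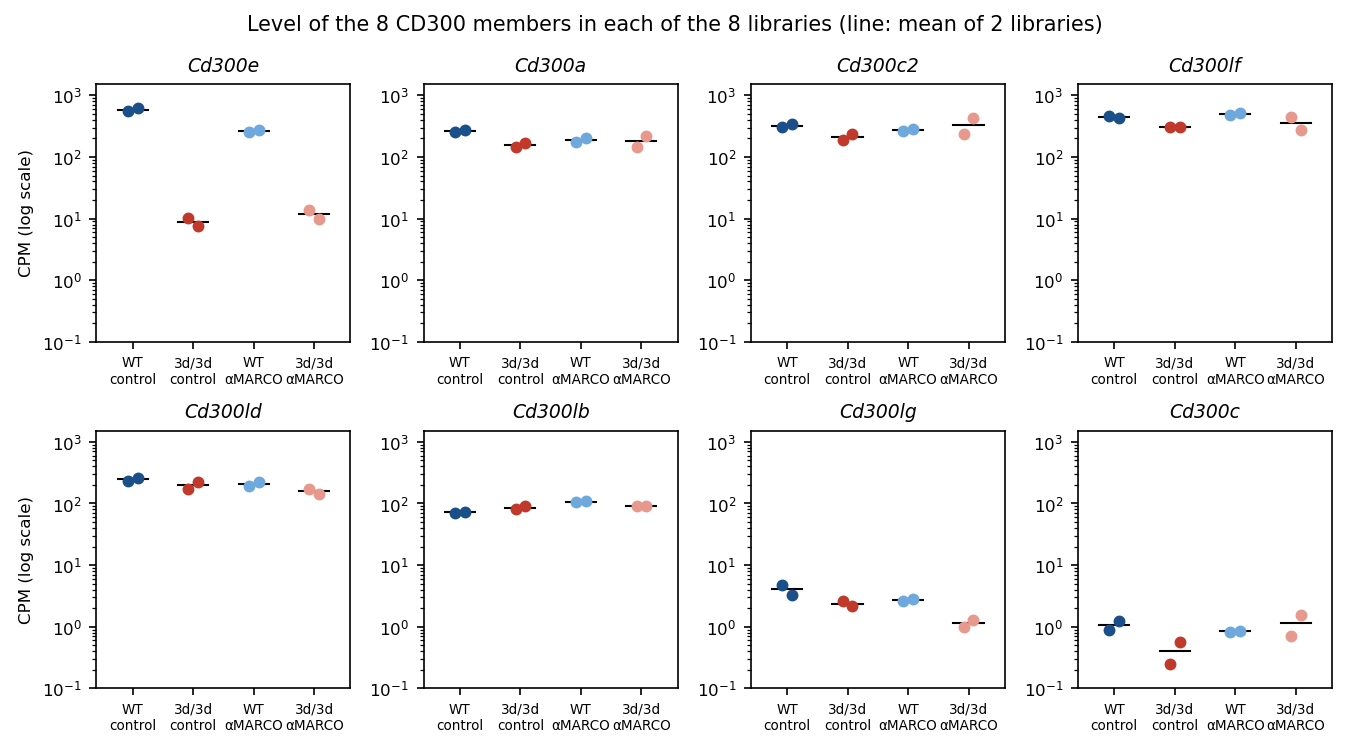
Level of each CD300 member in CPM on a log scale, 1 point per library and a line at the mean of the 2 libraries of a group. Cd300e lies at 253 to 615 CPM in the WT libraries and at 7.56 to 13.6 CPM in the Unc93b1 3d/3d libraries, while the other members keep within a much narrower range.

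Per kilobase of gene length, the scale on which genes can be compared with each other, Cd300e and Cd300c2 led the family in WT control. Cd300e reached a level of 281 ± 19.4 CPM per kb (SD, n = 2) and Cd300c2, an activating receptor, reached 253 ± 23.9, and these 2 overlapped. Cd300ld at 92.6 and Cd300lf at 86.3 CPM per kb also overlapped with each other. Cd300a at 56.3, Cd300lb at 24.9, Cd300lg at 1.48 and Cd300c at 0.993 followed, each below the one before. In Unc93b1 3d/3d control Cd300e took place 6 at 4.21 ± 0.842 CPM per kb, and Cd300c2 led alone at 166 ± 28.6. In WT αMARCO Cd300c2 at 214 ± 7.30 stood above Cd300e at 126 ± 6.03, again without overlap. In Unc93b1 3d/3d αMARCO Cd300c2 led at 261 ± 103, and Cd300e took place 6 at 5.61 ± 1.30.

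Cd300e therefore made up 35.0% and 35.5% of the summed CD300 level per kilobase in the WT control libraries, and 21.0% and 21.3% in the WT αMARCO libraries. In the Unc93b1 3d/3d libraries its share was 0.894% to 1.59%. The summed level of the family was 763 and 830 CPM per kb for WT control against 335 and 402 for Unc93b1 3d/3d control. Without Cd300e the sums were 495 and 536 against 330 and 398, so the groups stayed apart also when the picked gene was left out. Under αMARCO the sums without Cd300e were 449 and 489 in WT and 404 and 520 in Unc93b1 3d/3d, and these overlapped.

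**Figure D2:**
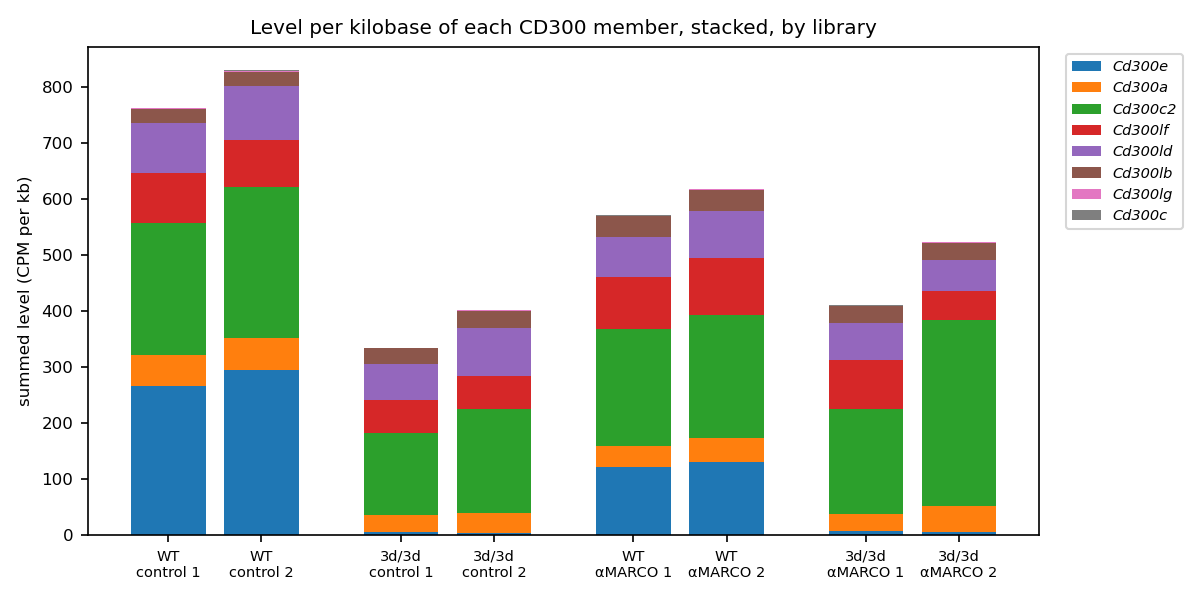
Level per kilobase (CPM per kb) of the 8 CD300 members stacked for each of the 8 libraries. Cd300e (blue) fills about 35.0% of the bar in WT control and 21.0% in WT αMARCO and is barely visible in Unc93b1 3d/3d, where Cd300c2 (green) makes up 43.5% to 63.6%.

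The WT against Unc93b1 3d/3d comparison in control TAMs asks how the genotypes differ without αMARCO, on the same harvest day as the treated mice. Here 3 of the 7 tested members, Cd300a, Cd300c2 and Cd300lf, were higher in WT and passed the test, and the other 4 did not. Calls needed an adjusted P not above 0.05 in edgeR's quasi-likelihood test and a log2 fold change of 0.5 or more in either direction. Of all 15600 genes tested, 13% were called, 6.58% higher in WT and 6.4% lower. The median log2 fold change of the 7 members was 0.59, against 0.00 over all genes. The differences were of another size than that of Cd300e.

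Cd300a, the inhibitory receptor at the end of the cluster, was at 258 and 275 CPM in WT control and 146 and 170 CPM in Unc93b1 3d/3d control. The groups did not overlap, and the level was 1.67-fold higher in WT (log2 0.74 ± 0.10, edgeR adjusted P = 0.00218). Cd300lf, the other inhibitory receptor, was at 458 and 431 CPM against 311 and 305 CPM. It was 1.43-fold higher in WT (log2 0.51 ± 0.09, edgeR adjusted P = 0.00682), which lies just above the fold threshold. Cd300c2 was at 301 and 344 CPM against 186 and 237 CPM, a 1.51-fold difference (log2 0.59 ± 0.13, edgeR adjusted P = 0.0145). Both signalling types were thus among the called members. With all 8 libraries in 1 model none of the 7 was called, against 2.19% of all genes. The call of Cd300c2 was lost without WT control replicate 2 or Unc93b1 3d/3d control replicate 1. The call of Cd300lf was lost without WT control replicate 1, without Unc93b1 3d/3d control replicate 2, or where every library had to hold 10 counts.

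The remaining members were not called in this comparison. Cd300ld, an activating receptor, was at 235 and 255 CPM in WT control and 170 and 223 CPM in Unc93b1 3d/3d control (log2 0.30 ± 0.13, edgeR adjusted P = 0.137). Cd300lb, which pairs with DAP12, pointed the other way, at 71.2 and 74.0 CPM against 80.0 and 91.2 CPM (log2 -0.25 ± 0.10, edgeR adjusted P = 0.104). In neither gene did the libraries of the 2 groups overlap. Cd300lg was low, at 4.80 and 3.32 CPM against 2.57 and 2.18 CPM (log2 0.76 ± 0.33, edgeR adjusted P = 0.14). Cd300c was near the limit of counting, at 0.896 and 1.22 CPM against 0.251 and 0.558 CPM, with as few as 4 reads in a library (log2 1.32 ± 0.65, edgeR adjusted P = 0.184).

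Cd300lg was read beside endothelial markers, since its protein is known from capillaries. In controls, the 8 endothelial markers summed to 287 and 291 CPM in WT against 97.8 and 125 CPM in Unc93b1 3d/3d, and Pecam1, which monocytes also express, made the difference, at 203 and 199 CPM against 28.9 and 24.1 CPM. None of the other markers differed by as many CPM. Kdr was at 72.1 and 82.6 CPM against 81.4 and 63.3 CPM, and Cdh5 at 9.07 and 6.65 CPM against 12.7 and 8.11 CPM. Tie1 was at 1.32 and 0.776 CPM against 1.13 and 1.72 CPM, and all of these overlapped. Esam was higher in WT without overlap, at 0.791 and 1.16 CPM against 0.439 and 0.558 CPM (log2 0.93 ± 0.61). Emcn, Cldn5 and Tek also lay higher in WT without overlap, but near 0, at 0.738 CPM or less in every control library. Of the 5 that passed the filter in controls, Pecam1 alone was called. Cd300lg was highest in WT control and lowest in Unc93b1 3d/3d αMARCO, at 0.977 and 1.30 CPM. The part of such cells in its level was not tested.

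Markers of nonclassical monocytes, the blood monocytes in which Cd300e is known as a marker, were also set beside Cd300e. In controls their summed level was 911 to 1020 CPM in WT against 502 to 637 CPM in Unc93b1 3d/3d. Under αMARCO it was 1020 to 1190 CPM against 849 to 1090 CPM, and all 10 markers were detected. Nr4a1, a transcription factor gene that many activated cells also express, made up most of these sums, at 746 and 875 CPM in WT αMARCO. Single markers are therefore given as well. In control TAMs Spn, Adgre4, Pglyrp1 (log2 1.57) and Eno3 (log2 0.64) were called higher in WT and Cx3cr1 (log2 -0.92) lower. Of all genes, 6.58% were called higher and 6.4% lower. The other 5 markers were not called, namely Treml4 (log2 2.56), Fabp4 (log2 0.61), Nr4a1 (log2 0.54), Itgal (log2 0.48) and Ace (log2 -0.10). Spn, which encodes CD43, was at 133 and 165 CPM in WT control and 20.5 and 21.1 CPM in Unc93b1 3d/3d control (log2 2.82, edgeR adjusted P = 3.02e-06). Adgre4 was at 63.0 and 48.8 CPM against 10.3 and 6.39 CPM (log2 2.74, edgeR adjusted P = 0.000755). Neither reached the size of the Cd300e difference. Between αMARCO and control in WT, 5 of the 10 were called lower, as Cd300e was, namely Spn (log2 -1.37), Adgre4 (log2 -1.52), Pglyrp1 (log2 -1.46), Fabp4 (log2 -1.17) and Eno3 (log2 -0.51). Nr4a1 was called higher (log2 0.61). The edgeR background of that comparison was 11.8% of all genes lower and 8.91% higher. Conventional dendritic cell markers summed to 187 to 347 CPM in WT control, of which Ccr7 gave 214 and 119 CPM, and to 28.7 to 60.5 CPM in the other libraries. The part of these cells in the CD300 levels was not tested.

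Under αMARCO, 0 of the 7 tested members were called between the genotypes by edgeR, and 0 by DESeq2. Of all 15722 genes, 0.0% were called by edgeR, while 1076 had an unadjusted P under 0.05 and DESeq2 called 195, with the Unc93b1 3d/3d libraries as far apart as given above. Among the members, 1 had an unadjusted P under 0.05, Cd300lg, at 2.66 and 2.78 CPM in WT αMARCO (log2 1.25 ± 0.42, edgeR adjusted P = 0.693). Cd300a was at 174 and 206 CPM in WT αMARCO and 147 and 220 CPM in Unc93b1 3d/3d αMARCO, so that the groups overlapped (log2 0.04 ± 0.25). Cd300c2 was at 267 and 280 CPM against 240 and 425 CPM, and Cd300c at 0.821 and 0.861 CPM against 0.710 and 1.57 CPM, both with overlap. Cd300lf was at 480 and 525 CPM against 445 and 270 CPM, Cd300ld at 191 and 225 CPM against 174 and 143 CPM, and Cd300lb at 106 and 109 CPM against 91.0 and 91.4 CPM. These 3 were higher in WT without overlap, and none passed the test (log2 0.47 ± 0.31, 0.37 ± 0.21 and 0.23 ± 0.17).

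These values rested on which Unc93b1 3d/3d αMARCO library was used. Without replicate 1, 4 of the 7 members were called, Cd300lf, Cd300ld and Cd300lg higher in WT (log2 0.90, 0.54 and 1.07) and Cd300c2 lower (log2 -0.63). That fit called 38.6% of all genes. Without replicate 2, only Cd300lg was called (log2 1.44), against 7.45% of all genes. Cd300lg was thus the 1 member called whichever of these libraries was left out. The lone library is then assumed to vary like the WT group.

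The αMARCO against control comparison asks what the treatment changed in each genotype. In WT TAMs 2 of 8 members passed the test, Cd300lb higher and Cd300e lower under αMARCO. Of all 15630 genes, 20.7% were called, 8.91% higher and 11.8% lower, so the share of members called was near that background. Cd300lb was at 106 and 109 CPM under αMARCO and 71.2 and 74.0 CPM in control. The replicates lay close together, and the level rose 1.48-fold (log2 0.57 ± 0.08, edgeR adjusted P = 0.000694). Cd300e, at 253 and 271 CPM against 558 and 615 CPM, fell to 0.447 of its control level (log2 -1.16 ± 0.09, edgeR adjusted P = 6.78e-05). The WT control libraries are shared with the contrast by which Cd300e was picked, so its P-value and call here are not independent of that choice. The call of Cd300lb was lost with all 8 libraries in 1 model (log2 0.56, edgeR adjusted P = 0.0891, range over the alternatives 1.37e-08 to 0.0891).

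The other 6 members were not called in WT with all 4 libraries. Cd300a was at 174 and 206 CPM against 258 and 275 CPM, past the P threshold but just short of the fold threshold (log2 -0.49 ± 0.09, edgeR adjusted P = 0.00345). It was called without WT control replicate 1 (log2 -0.54) and without WT αMARCO replicate 2 (log2 -0.60), fits that called 19.1% and 14.1% of all genes. Cd300lg was called without WT control replicate 2 (log2 -0.82, edgeR adjusted P = 0.0402), against log2 -0.58 ± 0.29 and an edgeR adjusted P of 0.147 with all 4 libraries, and 23.6% of all genes were called in the fit without that library. Cd300c2 and Cd300ld were both at log2 -0.24 ± 0.09, Cd300c at -0.32 ± 0.48 and Cd300lf at 0.18 ± 0.09, none of them called.

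In Unc93b1 3d/3d TAMs 0 of 8 members were called between αMARCO and control by edgeR, 0 by DESeq2, and 0 had an unadjusted P under 0.05. Of all 15428 genes 0.0% were called by edgeR, 744 had an unadjusted P under 0.05 and DESeq2 called 52. Cd300e was at 13.6 and 9.78 CPM against 10.04 and 7.56 CPM, with overlap (log2 0.43 ± 0.32, edgeR adjusted P = 0.823). Cd300lb was at 91.0 and 91.4 CPM against 80.0 and 91.2 CPM, again with overlap (log2 0.11 ± 0.20, edgeR adjusted P = 0.903). The estimates of the other members ran from log2 -1.05 ± 0.51 in Cd300lg to 1.46 ± 0.81 in Cd300c. Without αMARCO replicate 1 Cd300c2 was called higher (log2 1.01), and without αMARCO replicate 2 Cd300lf was called higher (log2 0.55). These 2 fits called 34.1% and 3.41% of all genes.

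**Figure D3:**
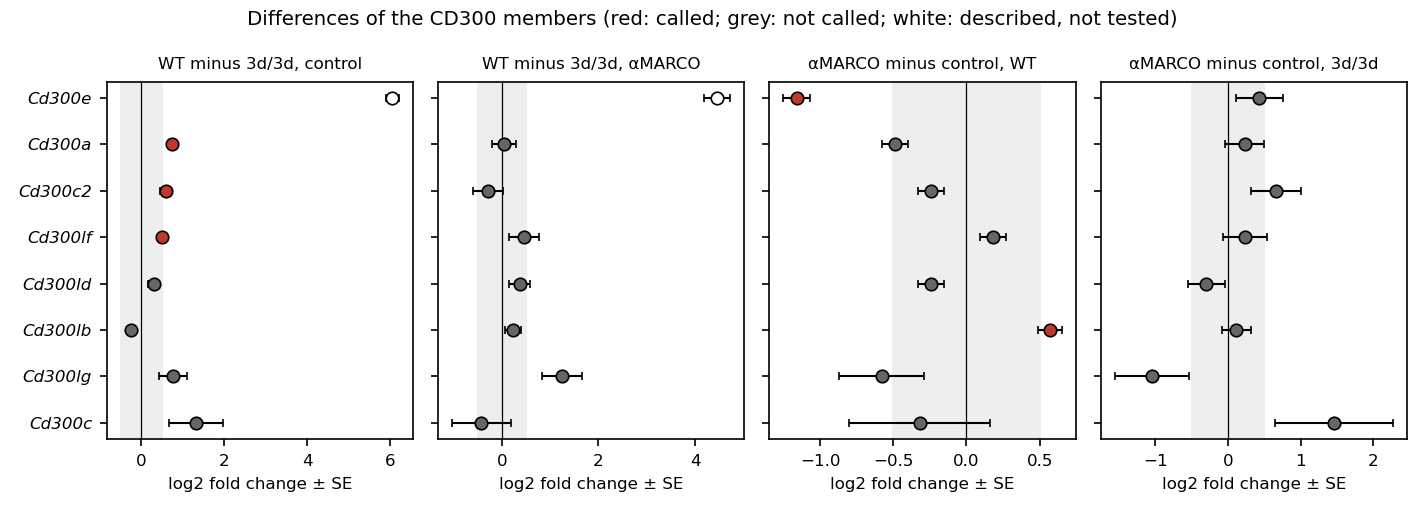
Log2 fold change ± SE of each CD300 member in 4 comparisons of 2 against 2 libraries, with a different horizontal range in each panel and the shaded band marking changes under the threshold of 0.5. Called members are red, namely Cd300a, Cd300c2 and Cd300lf for WT against Unc93b1 3d/3d in control and Cd300e and Cd300lb for αMARCO in WT, and the genotype differences of Cd300e are white because they were not tested.

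The difference between the αMARCO differences of the genotypes was fitted over all 8 libraries. It called 0 of 7 members by edgeR and 0 by DESeq2, with 3, Cd300a, Cd300c2 and Cd300lb, at an unadjusted P under 0.05. Over all 16620 genes edgeR called 0.0%, 2549 had an unadjusted P under 0.05 and DESeq2 called 200. The estimate, αMARCO effect in WT minus that in Unc93b1 3d/3d, was log2 -0.72 ± 0.29 for Cd300a, -0.90 ± 0.36 for Cd300c2 and 0.46 ± 0.19 for Cd300lb, each at an edgeR adjusted P of 0.318. As a description, the estimate of Cd300e was log2 -1.60 ± 0.30. Without Unc93b1 3d/3d αMARCO replicate 1, Cd300a (log2 -0.97) and Cd300c2 (log2 -1.24) were called, while without replicate 2 no member was. Of all genes, 36.4% were called in the first of these fits and 3.45% in the second, so 2 of 7 members lay below the background of the first. For Cd300lb, called under αMARCO in WT and not in Unc93b1 3d/3d, a difference between the genotypes in the response was therefore not shown. Cd300lb also lay lower in WT than in Unc93b1 3d/3d in control and higher under αMARCO, without overlap, as 13.4% of all genes did in one order or the other. The αMARCO libraries of Cd300c and Cd300c2 lay below their controls in WT and above them in Unc93b1 3d/3d, again without overlap, and 10.7% of all genes moved in opposite directions in this way. For Cd300c both WT groups held 17 and 22 reads, so they differed only after scaling to library totals.

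Of the 4 Cd300 genes outside the member list none was called between the genotypes in control, and in each of them both Unc93b1 3d/3d αMARCO libraries lay below the other 6, as in 6.32% of all genes. Since Cd300ld3, Cd300ld4 and Cd300ld5 share most of their sequence, the 4 genes are not separate measurements. Cd300ld2 was at 14.2 to 20.4 CPM in the other 6 libraries and at 11.2 and 3.56 CPM in Unc93b1 3d/3d αMARCO. The counts of these 3 copies were also summed, a step chosen after the values were seen. In controls the sum was 15.9 and 29.3 CPM for WT against 22.5 and 19.6 CPM for Unc93b1 3d/3d. Under αMARCO it was 19.1 and 14.7 CPM against 6.08 and 2.60 CPM. The last group lay below all others without overlap, which follows from each copy doing so by itself and adds no further evidence. In the separate fits none of the 4 genes was called by edgeR. Cd300ld4 was at log2 -2.16 ± 0.39 between αMARCO and control in Unc93b1 3d/3d (edgeR adjusted P = 0.823), and DESeq2 called it (log2 -2.17, adjusted P = 0.00182). It was also called by edgeR without Unc93b1 3d/3d αMARCO replicate 1 (log2 -2.74) and without replicate 2 (log2 -1.76). Over all its alternatives the edgeR and DESeq2 adjusted P of this difference ran from 1.32e-08 to 1.0.

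The neighbours of Cd300e were then followed along the chromosome. Within 500 kb of Cd300e lay 40 genes, of which 34 passed the filter on low counts, and 23 of these were not Cd300 genes. In control TAMs 6 of the 23 were called between the genotypes, 3 higher in WT and 3 lower, against 13% of all genes. Rab37, a small GTPase of secretory vesicles, had the largest log2 difference of the called neighbours. Its level was 12.2 and 10.1 CPM in WT control and 1.07 and 1.62 CPM in Unc93b1 3d/3d control (log2 3.01 ± 0.29, edgeR adjusted P = 0.000344). It lies 69.8 kb from Cd300e by gene middles, and its interval, chr11:115091431-115162236 on the plus strand, spans Cd300lf on the other strand. Cd300lf itself, inside that interval, differed by log2 0.51. Hid1, 300.7 kb from Cd300e by gene middles, had a similar estimate to Rab37, log2 2.79 ± 0.86. It was low, at 2.48 CPM or less in the control libraries, and was not called (edgeR adjusted P = 0.0586). Slc9a3r1, a scaffold protein beneath the membrane, was also higher in WT (log2 0.61 ± 0.09, edgeR adjusted P = 0.00312), as was Mrpl58 (log2 0.51 ± 0.15, edgeR adjusted P = 0.0465), while Ttyh2, Btbd17 and Sumo2 were lower. With all 8 libraries in 1 model Rab37 alone of the 6 stayed called. The calls of Mrpl58 and Btbd17 were also lost with DESeq2 (adjusted P = 0.0885 and 0.0685) and each without any of 3 of the 4 libraries, and that of Ttyh2 without Unc93b1 3d/3d control replicate 2. On the side of Cd300e away from Rab37 the nearest gene was Cd300ld3, whose reads are uncertain, at log2 0.69 ± 1.13. The difference thus did not run evenly through the cluster.

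Under αMARCO in WT, 5 of the 23 neighbours were called, all lower, against 20.7% of all genes called and 11.8% called lower. Rab37 was among them (log2 -1.14 ± 0.20, edgeR adjusted P = 0.00256), with Hid1, Nt5c, Atp5h and Rpl38. All 5 calls were lost with all 8 libraries in 1 model, which called 0.987% of all genes, at adjusted P values from 0.0685 for Rpl38 to 0.394 for Hid1. The call of Hid1 was also lost with DESeq2 (adjusted P = 0.109), without WT control replicate 1 and without either WT αMARCO library. Those of Nt5c and Atp5h were lost without WT αMARCO replicate 1, so 2 of the 5 remained without that library. In both Rab37 and Cd300e WT control lay above WT αMARCO and WT αMARCO above the Unc93b1 3d/3d libraries, whose 2 groups overlapped. Asb2 and Klra17, on other chromosomes, also lay in the order WT control, WT αMARCO, Unc93b1 3d/3d. These genes were picked for a pattern like that of Cd300e, as described below, so their order follows from that choice. The share of all genes in that order was not counted.

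**Figure D4:**
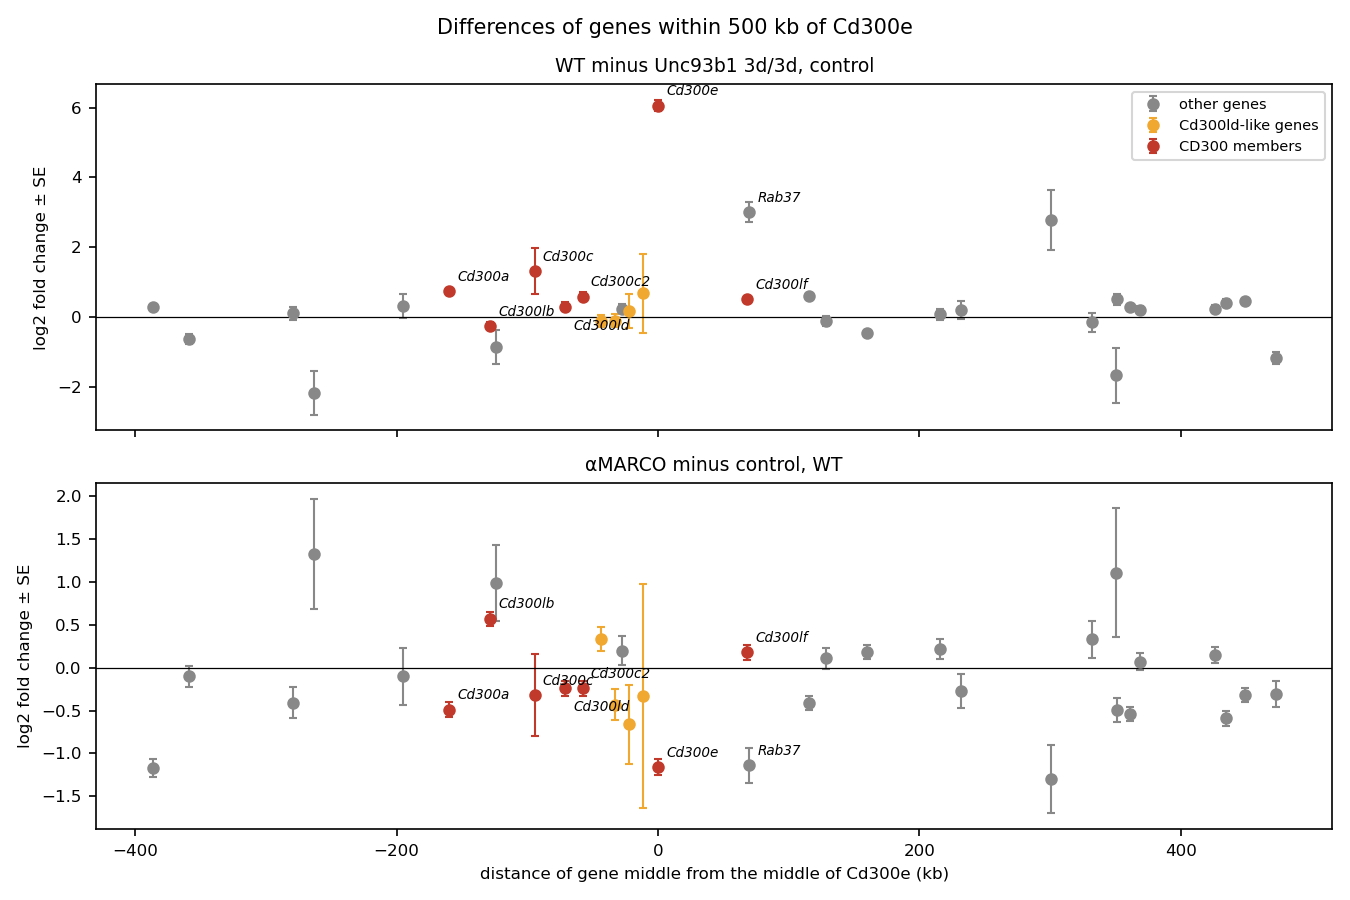
Log2 fold change ± SE of genes within 500 kb of Cd300e against the distance between gene middles in kb, for WT minus Unc93b1 3d/3d in control (top) and αMARCO minus control in WT (bottom). Cd300e at log2 6.05 and Rab37 at 3.01 stand above the other Cd300 genes in the top panel, where the members beside Cd300e lie between -0.25 and 1.32.

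Outside the cluster, the genes whose pattern was most like that of Cd300e were sought by the root mean square difference of centred log2 CPM over the 8 libraries, among 16572 other genes. Asb2, which encodes a ubiquitin ligase adaptor, was nearest at 0.39. In controls it was at 58.9 and 75.0 CPM in WT against 1.51 and 1.22 CPM in Unc93b1 3d/3d, and under αMARCO at 32.3 and 31.2 CPM against 1.91 and 2.46 CPM. An unannotated transcript on chromosome 3 (0.46), Pydc3 (0.47), Klra17 (0.54) and Negr1 (0.62) followed. Klra17, a receptor of the Ly49 family, was at 30.1 and 44.7 CPM in WT control and 14.0 and 15.0 in WT αMARCO, and at 0.488 to 1.32 CPM in the Unc93b1 3d/3d libraries. These lie on chromosomes 12, 3, 1, 6 and 3, none on that of Cd300e. With a prior count of 0.5 in place of 2, 2 of the 5 stayed among the nearest 5. Rab37 ranked 51 at 1.54. The members ranked from 586 (Cd300lg, 2.24) to 9237 (Cd300lb, 2.71), so none was among the genes closest to Cd300e.

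The signalling partners of the family were followed from a list of 12 genes, all of which passed the filter. In control TAMs 3 were called higher in WT and 1 lower, against 13% of all genes called. Ptpn6, which encodes SHP-1, the phosphatase recruited by the inhibitory members, was higher in WT (log2 0.82, edgeR adjusted P = 0.00188). Fcer1g, an adaptor of the activating members, was also higher (log2 0.56, edgeR adjusted P = 0.0093), as was Pik3r1, a regulatory subunit of phosphoinositide 3-kinase (log2 0.52, edgeR adjusted P = 0.00551). Il4ra, the interleukin-4 receptor alpha chain, was lower (log2 -1.13, edgeR adjusted P = 0.000535). Tyrobp, the DAP12 adaptor, was at 668 and 674 CPM in WT control and 481 and 511 in Unc93b1 3d/3d control, past the P threshold but under the fold threshold (log2 0.42, edgeR adjusted P = 0.0169). The median of the list was log2 0.32, against 0.00 over all genes. With all 8 libraries in 1 model Il4ra alone stayed called, and Ptpn6 (edgeR adjusted P = 0.0652), Pik3r1 (0.0882) and Fcer1g (0.334) did not. The calls of Fcer1g and Pik3r1 were also lost without Unc93b1 3d/3d control replicate 1 and 2, respectively, as their log2 fold change came under the threshold. Under αMARCO in WT 1 of the 12 was called, against 20.7% of all genes, namely Il4ra, which rose (log2 0.54, edgeR adjusted P = 0.00804). That call was lost with all 8 libraries in 1 model (edgeR adjusted P = 0.191), without WT control replicate 2 and without WT αMARCO replicate 1. Without WT control replicate 1 more of the 12 were called, both in this comparison and between the genotypes in control. By edgeR 0 of the 12 were called under αMARCO in Unc93b1 3d/3d and 0 between the genotypes under αMARCO, against 1 by DESeq2 in each. Of 9 related receptors of the TREM and polymeric immunoglobulin receptor kind, 4 passed the filter in control and 1, Trem2, was called, lower in WT (log2 -1.50, edgeR adjusted P = 0.00716), a call lost with all 8 libraries in 1 model (adjusted P = 0.203). Trem2, which also signals through DAP12, was not called in any other comparison.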

How the data were processed

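Bulk RNA-seq of sorted TAMs was available from 8 libraries in 4 groups. The authors prepared poly-A libraries, cleaned reads by fastp, used HISAT2 2.0.5 for alignment to GRCm38, and obtained counts from featureCounts 1.5.0. The deposited counts are raw reads per gene, and the deposited FPKM values are the authors' scaling of these counts to gene length and library total. The authors' fold changes and P-values (DESeq2 1.40.2) in the tables were not used. The 3 tables were joined by gene identifier, and 0 of the 95230 counts that stand in several tables disagreed. Where a table did not list a gene, 0 was used. Of 26457 identifiers found in GENCODE M21, 95.7% had identical positions, among them all 12 Cd300 genes.

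CPM used TMM factors over all 8 libraries, and CPM per kb the deposited gene length. Tests used edgeR 4.0.16 in R 4.3.3 (TMM, filterByExpr, robust quasi-likelihood test, Benjamini-Hochberg adjustment over all genes) on the 4 libraries of a comparison, and on 8 for the difference between αMARCO differences. All 8 members passed the filter in every comparison. Calls needed an adjusted P not above 0.05 and a log2 fold change of 0.5 or more in either direction. The procedure was run on simulated data with a true log2 change of 2 and the same spread in every library, where 94% to 99% of changed genes were recovered. The simulation did not hold the wider spread of the Unc93b1 3d/3d αMARCO libraries, so it does not show how the procedure performs on them. Alternatives were DESeq2 1.42.0, its size factors, no filter, a minimum of 10 counts per library, a single model of all 8 libraries, a replicate block and leaving out each library. Total counts of 15182618 to 26411936 per library set the detection floor, which covers counting error only. Where nothing in the labels separates cultures or animals for the αMARCO libraries, P-values measure only the spread between these samples. Named genes were the members, genes within 500 kb of Cd300e, other genes named Cd300, the 5 genes most like Cd300e, and called genes of the partner and related receptor lists. The members and lists were chosen with earlier results of these data known. Marker lists of classical monocytes, neutrophils, mast cells and basophils, plasmacytoid dendritic cells and B cells were also summed, at 558 to 1440, 20.2 to 81.4, 1.27 to 4.83, 370 to 683 and 4.56 to 43.2 CPM over the libraries.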

Additional observations from a re-analysis of the deposited data

Results flagged for a closer look

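Among the members, the CPM of 2 moved in opposite directions under αMARCO in the genotypes, with every library of one group on the other side of its control. Cd300c2 was at 267 and 280 CPM under αMARCO against 301 and 344 CPM in control in WT, and at 240 and 425 CPM against 186 and 237 CPM in Unc93b1 3d/3d. The difference between the αMARCO differences was log2 -0.90 ± 0.36 (edgeR adjusted P = 0.318). It was called without Unc93b1 3d/3d αMARCO replicate 1, at log2 -1.24. Cd300c showed the same pattern at 0.251 to 1.57 CPM, with a difference of log2 -1.77 ± 0.88 (edgeR adjusted P = 0.347). In WT it held 17 and 22 reads both in control and under αMARCO, so there it differed only after scaling to library totals. Over all genes, 10.7% moved in opposite directions without overlap in this way.

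Cd300lb was lower in WT than in Unc93b1 3d/3d in control, at 71.2 and 74.0 against 80.0 and 91.2 CPM, and higher under αMARCO, at 106 and 109 against 91.0 and 91.4 CPM. The test of that difference gave log2 0.46 ± 0.19 (edgeR adjusted P = 0.318). Over all genes, 13.4% differed between the genotypes in opposite directions without overlap in this way.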

How the results depend on the processing

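The counts of members called rested on the libraries in the fit. With all 8 libraries in 1 model, 0 of 7 members were called between the genotypes in control and 1 of 8, Cd300e, between αMARCO and control in WT. The other 7 were not called there. Cd300e is included in every count given here for αMARCO in WT, and its call is not independent of how it was picked. Leaving out 1 library at a time gave 2 called members in control in each case, 0 to 4 between the genotypes under αMARCO, 2 to 3 under αMARCO in WT, 0 to 1 under αMARCO in Unc93b1 3d/3d, and 0 to 2 for the difference between the αMARCO differences. Under αMARCO in WT it was 3 without WT control replicate 1 or 2 or WT αMARCO replicate 2. In the other 3 comparisons the counts moved without Unc93b1 3d/3d αMARCO replicate 1 or 2, which gave 4 and 1 between the genotypes, 1 and 1 for αMARCO in Unc93b1 3d/3d, and 2 and 0 for the difference of differences, where the cause was not tested. Single members changed sign without a library. Between the genotypes under αMARCO, Cd300a ran from log2 -0.20 to 0.34, Cd300c from -0.89 to 0.21 and Cd300c2 from -0.63 to 0.16. For αMARCO in Unc93b1 3d/3d, Cd300a ran from -0.07 to 0.48 and Cd300lf from -0.18 to 0.55. For the difference of differences, Cd300ld ran from -0.16 to 0.24 and Cd300lf from -0.39 to 0.37. With at least 10 counts in every library, the last of these was 0.01 for Cd300lf. No pairing by the replicate numbers of the labels was seen, since the correlations of same-numbered deviations ran from -0.08 to 0.14. With 2 libraries per group these correlations cannot settle whether the samples were paired. With the numbers as a replicate block, 3 members were called in control, 2 under αMARCO in WT and 0 in the other comparisons, as without the block. DESeq2, its size factors and no filter gave the same counts of members called in every comparison. A minimum of 10 counts per library did so too, except for 2 in place of 3 in control. The order of the members per kilobase and the share of Cd300e were the same with DESeq2 size factors and with the deposited FPKM. These scales use the same counts and gene lengths, so within a library neither could differ, and this was no check. With 2 libraries per group, the spread behind each value is known only roughly.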
